A study of Homo sapiens with 19 samples.

Results

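The genes described here carry out glucose uptake and glycolysis or belong to the response to low oxygen. They were taken from a list of 39 genes drawn up from their known functions. The rule held no expression value, though earlier results of these data were known when the list was chosen. Members were looked up by gene symbol among the probe sets named by the platform annotation. Of the 39, 35 were measured under a named probe set, among 25579 genes tested. PGAM1, SLC16A1, SLC16A3 and CA9 had no probe set so named and were not analysed here. For SLC16A1, SLC16A3 and CA9, rows under their gene identifiers exist but were left unnamed. The 35 genes comprise 3 glucose transporters, 8 genes of the steps between hexokinase and aldolase, 4 PFKFB genes, 6 genes of lower glycolysis, 3 genes of lactate and pyruvate handling and 11 genes induced by hypoxia.

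The study lowered YAP and TAZ, the paralogous co-activators at the end of the Hippo pathway, in the human liver cancer line HepG2. Small interfering RNAs (siRNAs), which make a cell cut the mRNA they match, were introduced by transient transfection, and RNA was extracted 24 h later. Total RNA was measured on 19 Affymetrix arrays in 7 groups. The gene YAP1 was targeted by siYAP1 (n = 3) and siYAP2 (n = 3), and the TAZ gene WWTR1 by siTAZ2 (n = 3) and siTAZ3 (n = 2), each an independent siRNA. The remaining groups were the pairs siTAZ2_siYAP1 (n = 3) and siTAZ3_siYAP2 (n = 2), and a nonsense or scrambled control siRNA (n = 3). Single siRNAs were used at 20 nM and pairs at 40 nM in total, while the labels give the control's dose differently in different places. The knockdown is transient, in a single cell line, and the labels do not say whether replicates were separate cultures. The p-values therefore reflect the scatter among these arrays alone, and that scatter may be technical. Values are log2 intensities made by the authors, differences are given on this log2 scale as siRNA group minus control unless stated otherwise, and percentages of control are taken from them.

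Glycolysis splits glucose into pyruvate in the cytosol. Glucose enters through transporters of the SLC2A (GLUT) family, hexokinase traps it as glucose-6-phosphate, and phosphofructokinase is the main control point. In low oxygen the transcription factors HIF-1 and HIF-2 bind a short core sequence near their target genes, raise most glycolytic enzymes and transporters, and pyruvate is then turned into lactate. Adult hepatocytes rely on SLC2A2 and make glucose as well as burn it, whereas liver tumours commonly raise HK2 and other glycolytic genes.

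The 30 members with a RefSeq promoter window (GRCh38.p14) were searched for the HIF core, ACGTG or GCGTG on either strand, in the 250 bases before the first listed start site. The core was present in 19 of the 30 (63.3%), against 11763 of 27305 genes (43.1%). The motif bound by TEAD factors, the DNA-binding partners of YAP and TAZ, searched as GGAATG on either strand, was present in 1 of the 30 (3.33%, in ENO1), against 3248 of 27305 genes (11.9%). Of the members that passed the test in at least 1 planned comparison below, 2 of the 5 with a window held the HIF core, against 17 of the 25 that never passed. A match describes the letters of this window only. The windows of HK2, LDHA and SLC2A2 are shown because they run from several matches to none, with each HIF core in capitals, 5′ to 3′ on the strand of the gene. HK2 lies at chr2:74833877-74834126 (plus strand), LDHA at chr11:18394313-18394562 (plus strand) and SLC2A2 at chr3:171026721-171026970 (minus strand).
HK2: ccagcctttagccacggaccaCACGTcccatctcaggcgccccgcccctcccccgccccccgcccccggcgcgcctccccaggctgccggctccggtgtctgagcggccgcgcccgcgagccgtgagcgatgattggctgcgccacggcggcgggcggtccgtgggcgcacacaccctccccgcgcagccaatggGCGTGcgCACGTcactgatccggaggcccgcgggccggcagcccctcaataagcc
LDHA: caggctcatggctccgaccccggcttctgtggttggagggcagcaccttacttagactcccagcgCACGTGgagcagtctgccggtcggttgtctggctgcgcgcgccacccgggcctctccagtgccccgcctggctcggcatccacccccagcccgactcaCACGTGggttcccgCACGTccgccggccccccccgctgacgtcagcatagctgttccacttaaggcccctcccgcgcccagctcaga
SLC2A2: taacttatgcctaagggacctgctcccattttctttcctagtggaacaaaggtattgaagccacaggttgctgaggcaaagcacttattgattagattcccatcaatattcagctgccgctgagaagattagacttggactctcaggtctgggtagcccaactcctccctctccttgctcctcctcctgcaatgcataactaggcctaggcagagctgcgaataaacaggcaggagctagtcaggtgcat
The HK2 window held 3 cores, which began at positions -229, -55 and -48 relative to the start site. The LDHA window held 5, in part because each CACGTG is read on both strands as overlapping matches. The SLC2A2 window held 0.

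The knockdown was present in every group that should carry it. On the log2 scale YAP1 mRNA differed from control by -2.73 with siYAP1, -2.71 with siYAP2, -2.31 with siTAZ2_siYAP1 and -2.10 with siTAZ3_siYAP2. WWTR1 mRNA differed by -2.57 with siTAZ2 and -3.07 with siTAZ3 alone, and in the pairs by -2.34 (siTAZ2_siYAP1) and -3.25 (siTAZ3_siYAP2). Each of these differences passed the test described below, and with siTAZ3 alone YAP1 mRNA also fell by 0.41 (limma adjusted p = 0.0469). With siTAZ2 alone YAP1 was at 9.67, 9.70 and 9.42, against 9.87, 9.81 and 9.83 with control siRNA. WWTR1 was at 9.19, 9.19 and 9.10 with siYAP1 and 9.19, 9.15 and 9.32 with siYAP2, against 9.61, 9.49 and 9.54 with control siRNA. In each case the siRNA arrays lay below all control arrays. All 7 hepatocyte markers lay above the level of olfactory receptor genes, a yardstick for background (95th percentile 4.74), as did 2 of 5 fibroblast markers (COL1A1 and THY1), 0 of 4 endothelial markers and 1 of 4 leukocyte markers (CD68). The mean level of each list was similar on all arrays, at 11.6 to 11.9 for hepatocyte markers, 4.59 to 4.97 for fibroblast, 4.01 to 4.17 for endothelial and 5.17 to 5.36 for leukocyte markers. By the same yardstick 32 of the 35 members were above background, while HK1, PFKM and LDHB were not shown to be. PFKFB3 (mean over all arrays 4.75), ANKRD37 (4.82) and CA12 (4.92) were only just above it, so differences in these dim genes may be understated.

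Features of the data touch the results below. The array labelled siTAZ2 replicate 3 stood apart, with a median correlation of 0.9866 with the other arrays. For SLC2A3 it was at 9.41, nearer to siTAZ3 (9.55 and 9.55) than to the other siTAZ2 arrays (8.84 and 8.79). For EPAS1 it was at 9.30, against 9.66 and 9.46 with siTAZ3 and 7.72 and 7.85 on the other siTAZ2 arrays. For NDRG1 (7.80) and DDIT4 (5.95) it lay below all other arrays of both groups. Why it stood apart was not tested. Many results on siTAZ2 that move without it, though not all, are also given without it. The TAZ and combined arrays come from a later deposit than the YAP and control arrays, so deposit and siRNA cannot be told apart where a TAZ group is compared with control. The comparisons with control all share the same 3 control arrays. In bulk RNA, fewer cells of a kind and less RNA per cell cannot be told apart.

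Of the 35 genes, 8 passed in at least 1 planned comparison. The share of all genes that passed at least once was not counted, so this count is not a result about the genes as a group. Over the 10 planned comparisons the 35 genes gave 350 tests, of which 16 passed, 14 lower and 2 higher. Of the tests of all genes 1.97% passed (1.13% lower and 0.833% higher), a share of tests and not of genes. The comparisons share arrays. The 8 genes were SLC2A1, SLC2A2, SLC2A3, HK2, PFKFB1, PFKFB2, NDRG1 and KDM3A, and 27 genes passed in none. The test was limma on all 25579 genes, with Benjamini-Hochberg adjustment over all of them within each comparison and a threshold of 0.05.

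Set against control siRNA, the number of members that passed was small in each group. With siYAP1, 0 of 35 passed, where 0.88% of all genes did. At an unadjusted p under 0.05 there were 5 higher and 2 lower, against 1241 higher and 1087 lower of all 25579 genes. With siYAP2, 2 of 35 passed, both lower, where 3.72% of all genes did. With siTAZ2, 3 of 35 passed, all lower, where 2.37% of all genes did. With siTAZ3, 0 of 35 passed, where 1.16% of all genes did. At an unadjusted p under 0.05 there were 2 higher and 5 lower, against 1163 higher and 1116 lower of all genes. With siTAZ2_siYAP1, 1 member passed as higher and 2 as lower, where 2.44% of all genes passed. With siTAZ3_siYAP2, 2 of 35 passed, both lower, where 2.66% of all genes did. Read against these shares, the counts are not a result about the genes as a group. Without siTAZ2 replicate 3, whose spread enters every comparison, 4 members passed with siYAP1 (2.47% of all genes) and 2 with siYAP2 (7.08%). The TAZ siRNAs then gave 5 (siTAZ2, 5.1%) and 4 (siTAZ3, 3.55%), and the pairs 6 (siTAZ2_siYAP1, 6.05%) and 4 (siTAZ3_siYAP2, 5.7%). The members' median difference over all arrays was -0.01 for siYAP1, siYAP2 and siTAZ3_siYAP2, -0.03 for siTAZ2, -0.05 for siTAZ3 and 0.02 for siTAZ2_siYAP1, while that of all genes lay between -0.001 and 0.008.

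**Figure D1:**
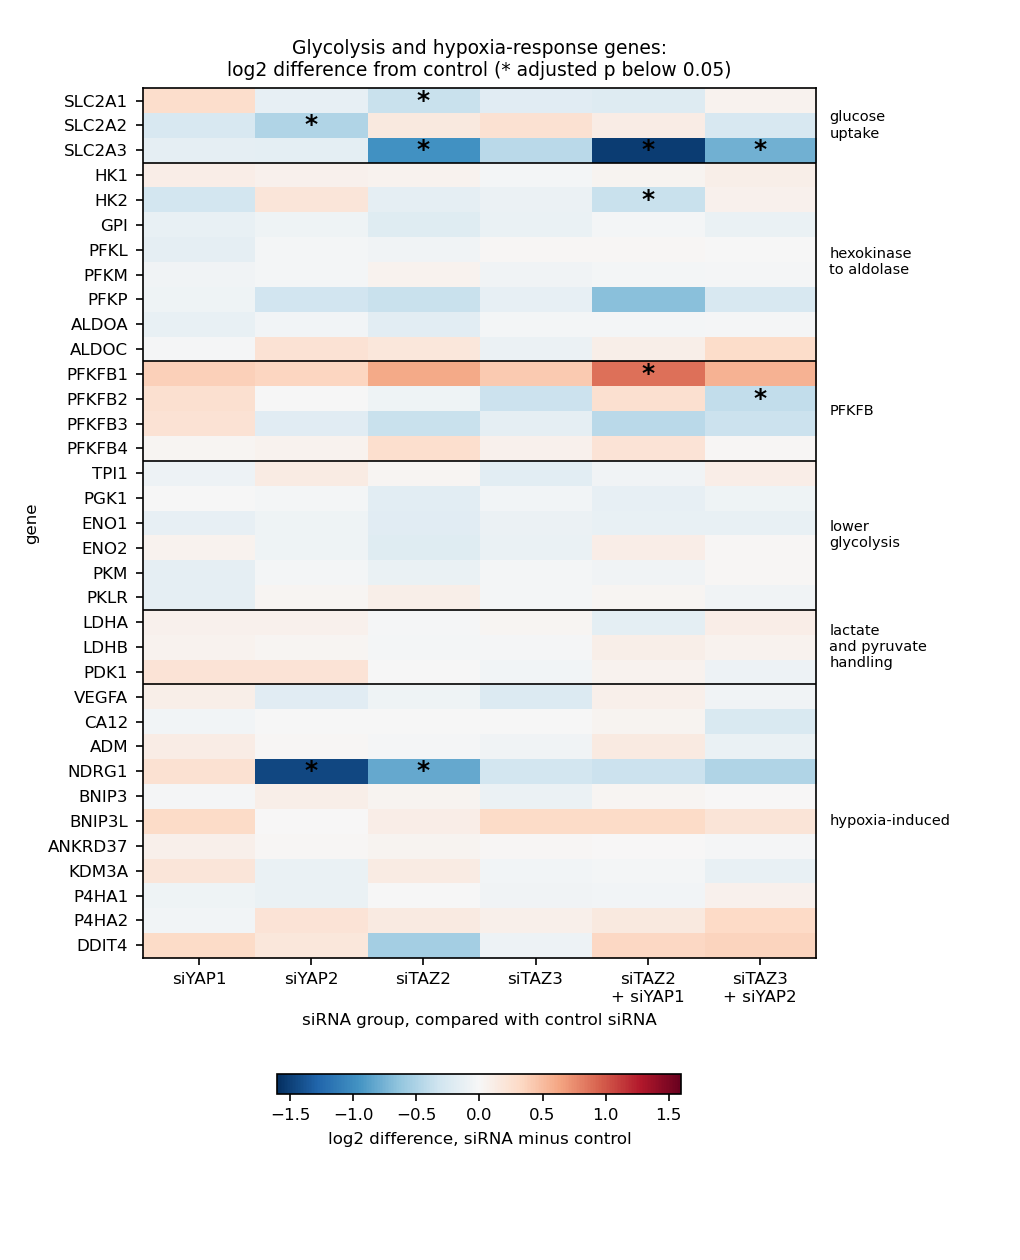
Log2 difference of each siRNA group from control siRNA (columns) for the 35 measured genes (rows, by role), with blue for lower, red for higher and a star where limma's adjusted p was under 0.05. Most cells are pale, and the darkest starred cells are SLC2A3 in the siTAZ2 and combined groups and NDRG1 with siYAP2 and siTAZ2, all lower, and PFKFB1 with siTAZ2_siYAP1, higher by 0.89.

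SLC2A3 (GLUT3), a high-affinity glucose transporter, was the member that moved furthest in the TAZ and combined groups. It was at 8.53, 8.55 and 8.30 with siTAZ2_siYAP1, 9.15 and 9.29 with siTAZ3_siYAP2, 8.84, 8.79 and 9.41 with siTAZ2 and 9.55 and 9.55 with siTAZ3, against 10.06, 9.92 and 9.96 with control siRNA. Every TAZ and combined array lay below every control array, and the siTAZ2_siYAP1 arrays were the lowest of all. With the YAP siRNAs alone it was at 9.76, 9.84 and 9.90 with siYAP1 and 9.82, 9.87 and 9.78 with siYAP2, a little under the control arrays and without overlap. The transcript fell by 1.52 (SE 0.123) with siTAZ2_siYAP1 on the log2 scale, to 34.8% of control (limma adjusted p = 4.48e-06). It fell by 0.97 (SE 0.123) with siTAZ2, to 50.9% of control (limma adjusted p = 4.66e-04), and by 1.17 without siTAZ2 replicate 3 (limma adjusted p = 3.5e-07). With only the siTAZ2 and control arrays in the fit, that call was lost (limma adjusted p = 0.143).

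With siTAZ3_siYAP2, SLC2A3 fell by 0.77 (SE 0.138), to 58.7% of control (limma adjusted p = 0.00481). Without siTAZ3_siYAP2 replicate 1 this call was lost (limma adjusted p = 0.0651). With siTAZ3 alone the difference was -0.43 (SE 0.138, limma adjusted p = 0.212), and it passed only when siTAZ2 replicate 3 was left out of the shared spread (limma adjusted p = 0.00466) or in 2 of the other fits, array weights and only the groups compared. With siYAP1 the difference was -0.15 (95% interval -0.41 to 0.11) and with siYAP2 it was -0.16 (95% interval -0.42 to 0.10), neither past the threshold.

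Among the 35 members SLC2A3 was also the single one whose TAZ and combined arrays (8.30 to 9.55) all lay below all arrays of the earlier deposit (9.76 to 10.06). Of all 25579 genes, 55 showed that pattern and 36 its opposite, 0.356% in all. The deposit's part in the size of these differences was not tested. SLC2A3 has a near-identical relative, SLC2A14, and whether its transcript contributes to the probe set was not tested. Within the later deposit, adding siYAP1 to siTAZ2 gave a difference of -0.55 (SE 0.123, limma adjusted p = 0.117) and adding siYAP2 to siTAZ3 gave -0.34 (SE 0.151, limma adjusted p = 0.681). Neither passed, and without siTAZ2 replicate 3 the first was -0.35 (limma adjusted p = 0.0869).

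SLC2A2 (GLUT2), the main glucose transporter of hepatocytes, was lower with siYAP2. It was at 10.06, 10.05 and 10.06 with siYAP2, against 10.53, 10.60 and 10.51 with control siRNA, with no overlap. It fell by 0.48 (SE 0.0611), to 71.5% of control (limma adjusted p = 1.33e-04), and the call held whichever of the 19 arrays was left out. With siYAP1 it was at 10.33, 10.18 and 10.35, also under all control arrays, with a difference of -0.26 (SE 0.0611, limma adjusted p = 0.0721) that passed only without siTAZ2 replicate 3 (limma adjusted p = 0.0264) or with array weights.

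The TAZ siRNAs gave SLC2A2 the opposite sign. It was at 10.62, 10.69 and 10.78 with siTAZ2 and 10.76 and 10.82 with siTAZ3, above every control array. The differences were 0.15 (SE 0.0611, limma adjusted p = 0.282, or 0.11 without replicate 3) and 0.25 (SE 0.0683, limma adjusted p = 0.123), short of the threshold, though siTAZ3 passed without siTAZ2 replicate 3 (limma adjusted p = 0.0463) and with array weights. When siYAP2 was added to siTAZ3, SLC2A2 was at 10.23 and 10.35, against 10.76 and 10.82 with siTAZ3 alone. That is a fall of 0.50 (SE 0.0748, limma adjusted p = 0.00351), beside the fall of 0.48 with siYAP2 alone, and it was lost without siTAZ3 replicate 2 (limma adjusted p = 0.0784) or with only the groups compared (0.356). This was the 1 member of 35 that passed in that comparison, where 0.563% of all genes did. When siYAP1 was added to siTAZ2, SLC2A2 was at 10.62, 10.64 and 10.72, overlapping the siTAZ2 arrays (difference -0.04, 95% interval -0.17 to 0.09, or 0.01 without siTAZ2 replicate 3). Against control, siTAZ3_siYAP2 gave -0.26 (limma adjusted p = 0.0657, or 0.0272 without siTAZ2 replicate 3).

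SLC2A1 (GLUT1), the basal glucose transporter and a standard HIF target, was lower with siTAZ2. Its values were 11.47, 11.33 and 11.18 with siTAZ2, against 11.76, 11.64 and 11.66 with control siRNA, and the groups did not overlap. It fell by 0.36 (SE 0.0754), to 78.0% of control (limma adjusted p = 0.0195), and by 0.29 without siTAZ2 replicate 3 (limma adjusted p = 0.0354). The call was lost without control replicate 1 or 3 or siTAZ2 replicate 2, with adjusted p up to 0.105 in limma, and with only the siTAZ2 and control arrays in the fit (0.272). Other groups did not pass: -0.19 with siTAZ3, -0.21 with siTAZ2_siYAP1, 0.06 with siTAZ3_siYAP2, -0.13 with siYAP2 and 0.28 with siYAP1, the last at 11.81, 12.05 and 12.02 and above every control array. Without siTAZ2 replicate 3 the difference with siYAP1 passed (limma adjusted p = 0.0366).

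**Figure D2:**
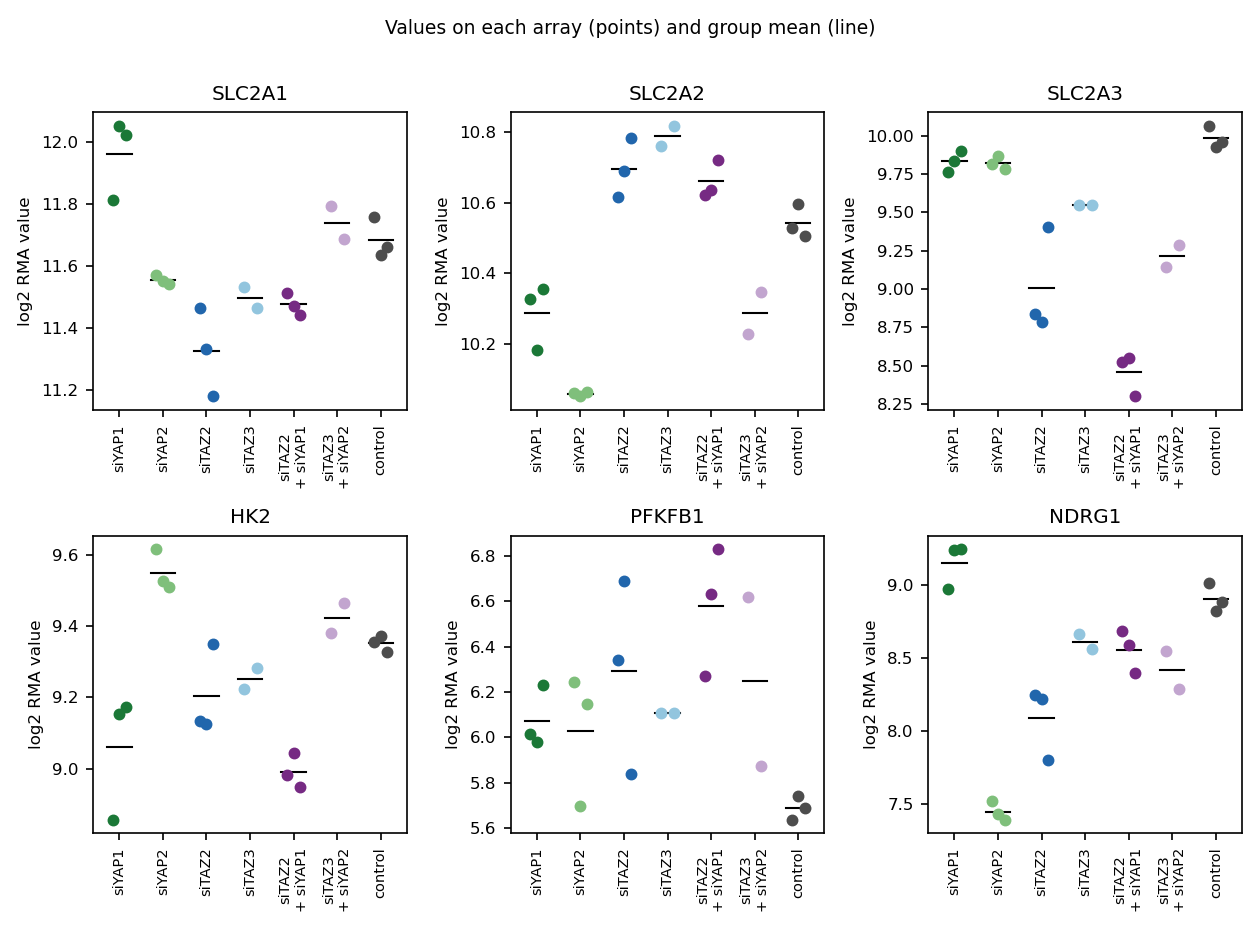
Log2 intensity of 6 genes on every array, with 1 point per array, a bar for the group mean and the control group at the right. SLC2A3 is lowest with siTAZ2_siYAP1 (8.30 to 8.55, against 9.92 to 10.06 with control), and NDRG1 is lowest with siYAP2 (7.39 to 7.52, against 8.82 to 9.01 with control).

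Between hexokinase and aldolase, 1 of 8 genes passed in 1 of the 6 comparisons with control. HK2, the hexokinase raised in many tumours, was at 8.98, 9.05 and 8.95 with siTAZ2_siYAP1, against 9.35, 9.37 and 9.33 with control siRNA. The groups did not overlap, and HK2 fell by 0.36 (SE 0.0808), to 78.0% of control (limma adjusted p = 0.0269). Leaving out any 1 of the 6 arrays of these groups lost the call (limma adjusted p up to 0.11). With siYAP1 alone HK2 was at 8.86, 9.15 and 9.17, below every control array (difference -0.29, SE 0.0808, limma adjusted p = 0.148, or 0.0485 without siTAZ2 replicate 3), and with siYAP2 alone at 9.62, 9.53 and 9.51, above every control array (difference 0.20, SE 0.0808, limma adjusted p = 0.301). The siRNAs against YAP1 thus gave HK2 differences of opposite sign.

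PFKP, the platelet-type phosphofructokinase, was at 5.23, 5.08 and 5.07 with siTAZ2_siYAP1, against 5.64, 5.94 and 5.83 with control siRNA. These groups did not overlap, but the difference of -0.67 (SE 0.189) did not pass (limma adjusted p = 0.0843). With siTAZ2 it was at 5.11, 5.17 and 6.05, against the same controls, so replicate 3 stood above every control array while the other replicates stood below. Without that array PFKP passed with siTAZ2 (difference -0.66, limma adjusted p = 0.00344) and with siTAZ2_siYAP1 (difference -0.67, limma adjusted p = 0.00101). GPI, which isomerises glucose-6-phosphate, differed by -0.19 (siTAZ2) to -0.03 (siTAZ2_siYAP1) and never passed, and the siTAZ2 difference was 0.00 without replicate 3. ALDOC, an aldolase, differed by 0.30 at most (siTAZ3_siYAP2, SE 0.206). The liver-type phosphofructokinase PFKL stayed within 0.15 of control in all 6 groups, and ALDOA, the main aldolase outside liver, within 0.17. With siTAZ2 the ALDOA difference was -0.08 without replicate 3. HK1 and PFKM, at the level of background, differed by at most 0.10.

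The PFKFB enzymes make and break fructose-2,6-bisphosphate, the activator of phosphofructokinase, and 2 of the 4 passed in 1 comparison each. PFKFB1, the form typical of liver and muscle, was at 6.27, 6.63 and 6.83 with siTAZ2_siYAP1, against 5.64, 5.74 and 5.69 with control siRNA. The groups were apart, and PFKFB1 rose by 0.89 (SE 0.215), a fold of 1.85 (limma adjusted p = 0.0403). The call was near the threshold and 11 of the 19 leave-one-array-out fits lost it, those without a control array included (limma adjusted p up to 0.187). In the other groups PFKFB1 was above control by 0.34 to 0.60 with no call, and without siTAZ2 replicate 3 the difference with siTAZ2 was 0.83 (limma adjusted p = 0.0312).

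PFKFB2, the form known from heart, was at 6.40 and 6.67 with siTAZ3_siYAP2, against 6.99, 6.86 and 6.94 with control siRNA. It fell by 0.40 (SE 0.0855, limma adjusted p = 0.0189), a call lost without control replicate 1 or 3. It was also lost with an intensity trend (limma adjusted p = 0.0741) and with only the groups compared (0.132). Without siTAZ3_siYAP2 replicate 1, which leaves 1 array in that group, the call was lost and PFKFB2 differed by -0.26. With siTAZ3 alone it was at 6.55 and 6.62, also below all control arrays (difference -0.35, SE 0.0855, limma adjusted p = 0.0732, or 0.0388 without siTAZ2 replicate 3). With siTAZ2_siYAP1 it lay at 7.21, 7.26 and 7.09, above all control arrays, with a difference of 0.26 (SE 0.0765, limma adjusted p = 0.113). PFKFB3, the hypoxia-inducible form, ranged from -0.43 (siTAZ2_siYAP1) to 0.23 (siYAP1) and PFKFB4, another inducible form, from 0.02 to 0.27, with no call for either.

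None of the 6 genes of lower glycolysis passed in any planned comparison with limma. At an unadjusted p under 0.05 there were 2, ENO1 and PGK1, both lower with siTAZ2, where 1456 of all 25579 genes were lower. Over all arrays the largest differences of these 6 genes from control were -0.20 for ENO2 (siTAZ2, SE 0.198), -0.18 for ENO1 (siTAZ2, SE 0.0657) and -0.17 for TPI1 (siTAZ3, SE 0.122). Without siTAZ2 replicate 3 the ENO2 difference turned to 0.15, and those of ENO1 and PGK1 with siTAZ2 were -0.14 and -0.09. ENO1, the common enolase, was at 11.75, 11.63 and 11.55 with siTAZ2, against 11.87, 11.79 and 11.80 with control siRNA, which is lower without overlap (limma adjusted p = 0.216). The 95% interval for this difference was -0.32 to -0.04. PGK1, which makes the first ATP of the pathway, PKM, the pyruvate kinase of most tissues, and PKLR, that of liver and red cells, all stayed within 0.17 of control in every group over all arrays. ENO1, PGK1, ALDOA, GPI, PFKP and SLC2A3 were below control in all 6 groups, and PFKFB1 and PFKFB4 above control in all 6. For GPI the siTAZ2 difference was 0.00 without replicate 3. The share of all genes with the same sign in every group was not counted. These 6 comparisons share their controls.

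LDHA, which turns pyruvate into lactate, did not pass anywhere. It was at 8.04, 8.10 and 7.92 with siTAZ2_siYAP1, against 8.03, 8.28 and 8.20 with control siRNA, a difference of -0.15 (95% interval -0.38 to 0.08) with overlap. In the other 5 groups its difference lay between -0.03 and 0.10, and with siTAZ2 it was -0.17 without replicate 3. PDK1, the kinase that closes the pyruvate dehydrogenase gate, was at 8.81, 8.71 and 8.80 with siYAP1 and 8.81, 8.76 and 8.74 with siYAP2, against 8.46, 8.53 and 8.66 with control siRNA. Both YAP groups were above all controls, by 0.22 in each (SE 0.0716), and neither passed (limma adjusted p = 0.254 with siYAP1 and 0.137 with siYAP2). LDHB, at the level of background, differed by at most 0.09.

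Among the 11 hypoxia-induced genes NDRG1 alone passed against control. NDRG1, a stress-responsive gene and a classic target of HIF, was at 7.52, 7.43 and 7.39 with siYAP2, against 9.01, 8.82 and 8.88 with control siRNA. The siYAP2 arrays were the lowest of all 19, more than 1 log2 unit under the nearest control. It fell by 1.46 (SE 0.118), to 36.4% of control (limma adjusted p = 1.31e-06), and the call held in every fit that left out 1 array.

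With siTAZ2, NDRG1 was at 8.24, 8.22 and 7.80, below every control array. It fell by 0.82 (SE 0.118), to 56.7% of control (limma adjusted p = 0.00143), and by 0.68 without siTAZ2 replicate 3 (limma adjusted p = 9.74e-04). With only the siTAZ2 and control arrays in the fit, that call was lost (limma adjusted p = 0.122). The siTAZ3 arrays were at 8.66 and 8.56 (difference -0.30, limma adjusted p = 0.516). The siTAZ2_siYAP1 arrays were at 8.68, 8.59 and 8.39 (-0.35, limma adjusted p = 0.186), and the siTAZ3_siYAP2 arrays at 8.55 and 8.29 (-0.49, limma adjusted p = 0.0688). All of these arrays lay below all control arrays without a call. Without siTAZ2 replicate 3 both pairs passed (limma adjusted p = 0.0381 with siTAZ2_siYAP1 and 0.0106 with siTAZ3_siYAP2). With siYAP1 alone it was at 8.97, 9.24 and 9.24, overlapping the controls (difference 0.25, 95% interval -0.01 to 0.50).

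The other 10 hypoxia-induced genes did not pass against control. BNIP3L, a mitophagy receptor, was at 9.66, 9.47 and 9.69 with siYAP1 and at 9.62, 9.57 and 9.63 with siTAZ2_siYAP1, against 9.29, 9.21 and 9.39 with control siRNA. Both groups were above all controls, by 0.31 in each (limma adjusted p = 0.146 with siYAP1 and 0.0802 with siTAZ2_siYAP1), and both passed without siTAZ2 replicate 3 (limma adjusted p = 0.0238 and 0.0115). So did BNIP3L with siTAZ3 (difference 0.31, limma adjusted p = 0.0384, against 0.206 with all arrays). DDIT4, an inhibitor of mTORC1 induced by stress, was at 7.20, 7.15 and 5.95 with siTAZ2, against 7.51, 7.18 and 7.25 with control siRNA. Its difference of -0.55 (SE 0.244, limma adjusted p = 0.365) rested on replicate 3 and was -0.14 without it. VEGFA, the main angiogenic growth factor, lay between -0.21 and 0.10, and ADM, the peptide hormone adrenomedullin, between -0.11 and 0.14. The collagen prolyl hydroxylases P4HA1 and P4HA2 lay between -0.11 and 0.32. BNIP3, ANKRD37 and CA12, which are standard HIF-induced genes, stayed within 0.25 of control, and KDM3A lay between -0.12 and 0.19.

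The siRNAs against YAP1 were also compared with each other. siYAP2 minus siYAP1 passed for 5 of 35 members, 4 lower and 1 higher, where 4.83% of all genes passed, and without siTAZ2 replicate 3 it passed for 8, where 8.49% of all genes did, the added genes being PFKFB2, VEGFA and BNIP3L, all lower. NDRG1 differed by -1.70 (SE 0.118), at 7.39 to 7.52 with siYAP2, against 8.97 to 9.24 with siYAP1 (limma adjusted p = 1.81e-07). SLC2A1 was at 11.57, 11.55 and 11.54 with siYAP2, against 11.81, 12.05 and 12.02 with siYAP1, a difference of -0.41 (SE 0.0754, limma adjusted p = 0.00369). HK2 was higher by 0.49 (SE 0.0808, limma adjusted p = 0.00149), at 9.51 to 9.62 with siYAP2, against 8.86 to 9.17 with siYAP1. These 3 calls held whichever of the 19 arrays was left out, and the groups were apart in each.

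SLC2A2 with siYAP2 differed from siYAP1 by -0.23 (SE 0.0611, limma adjusted p = 0.0418). KDM3A, a histone demethylase induced by HIF, was at 8.23, 8.23 and 8.19 with siYAP2, against 8.60, 8.47 and 8.46 with siYAP1, a difference of -0.29 (SE 0.079, limma adjusted p = 0.0442). These calls sat at the threshold: of the 19 leave-one-array-out fits, 13 lost SLC2A2 and 15 lost KDM3A. The depth of knockdown was nearly equal, since YAP1 mRNA averaged 7.13 with siYAP2, against 7.11 with siYAP1. Levels of genes in the oxygen-sensing machinery differed too: HIF1A, the HIF-1 subunit regulated by oxygen, differed by -0.57 between siYAP2 and siYAP1 (SE 0.064, limma adjusted p = 3.17e-05). Its part in the members' differences was not tested.

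**Figure D3:**
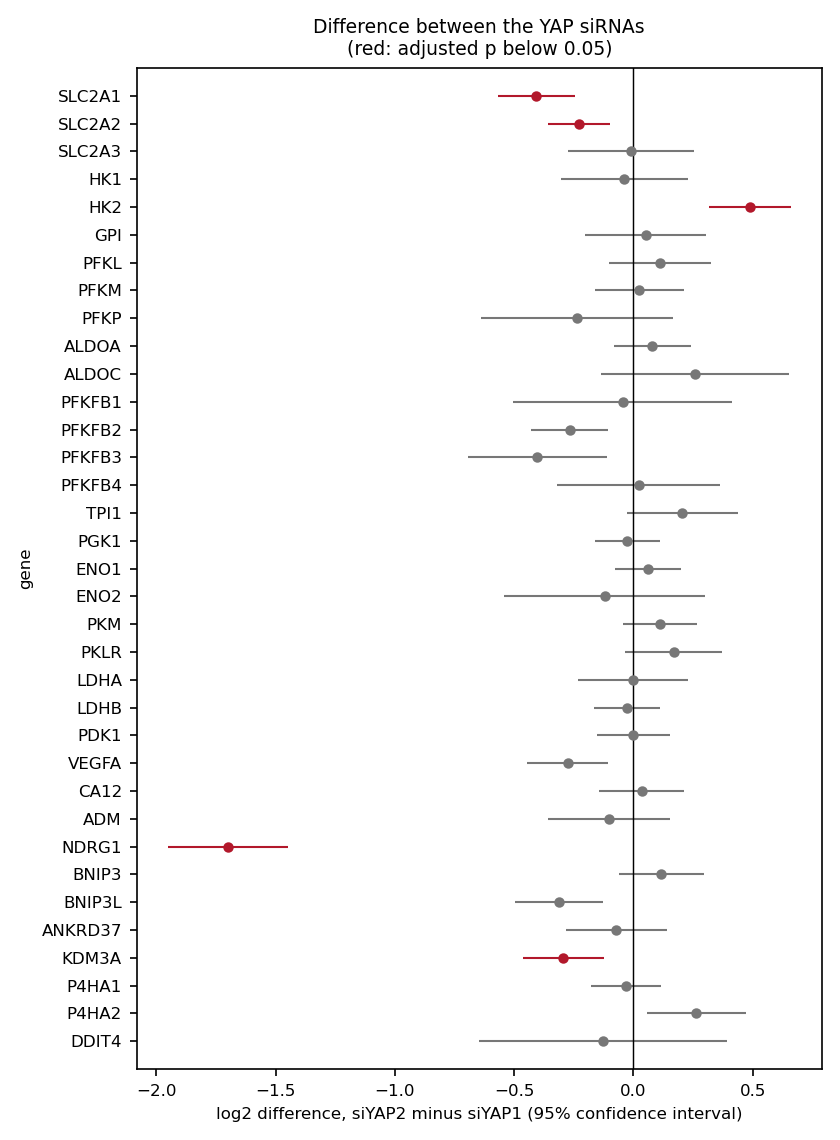
Log2 difference of siYAP2 minus siYAP1 for the 35 genes, with points for the estimate and lines for limma's 95% interval, in red where the adjusted p was under 0.05. NDRG1 stands alone at -1.70, SLC2A1, SLC2A2 and KDM3A lie between -0.41 and -0.23, and HK2 lies at 0.49.

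The TAZ siRNAs, compared directly as siTAZ3 minus siTAZ2, gave no call among the 35 members, where 0.813% of all genes passed. At an unadjusted p under 0.05 there were 2 higher and 1 lower, against 1039 higher and 1195 lower of all 25579 genes. SLC2A3 was higher with siTAZ3 by 0.54 (SE 0.138, limma adjusted p = 0.0977) and NDRG1 by 0.52 (SE 0.132, limma adjusted p = 0.0952, or 0.38 without siTAZ2 replicate 3). Without siTAZ2 replicate 3, SLC2A3 (0.74, limma adjusted p = 6.3e-05) and PFKP (0.52, limma adjusted p = 0.0332) passed, where 4.32% of all genes did. PFKFB2 differed by -0.28 (SE 0.0855, limma adjusted p = 0.211).

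The siRNA pairs were also set against the TAZ siRNA alone, within the same deposit. Adding siYAP1 to siTAZ2 gave no call among the 35 members, where 0.219% of all genes passed. At an unadjusted p under 0.05 there were 4 higher and 2 lower, against 964 higher and 1228 lower of all 25579 genes. DDIT4 was at 7.52, 7.69 and 7.74 with siTAZ2_siYAP1, against 7.20, 7.15 and 5.95 with siTAZ2 (difference 0.88, SE 0.244, limma adjusted p = 0.258). The groups did not overlap, and without siTAZ2 replicate 3 the difference was 0.47. PFKFB2 was at 7.21, 7.26 and 7.09 with the pair, against 6.91, 6.81 and 6.86 with siTAZ2, also without overlap (difference 0.32, SE 0.0765, limma adjusted p = 0.146). NDRG1 was at 8.68, 8.59 and 8.39 with the pair, against 8.24, 8.22 and 7.80 with siTAZ2 (difference 0.47, SE 0.118, limma adjusted p = 0.192), so all pair arrays were above all siTAZ2 arrays. Without siTAZ2 replicate 3 this difference was 0.33 (limma adjusted p = 0.418).

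A comparison added after the data were seen asked whether a YAP siRNA acted differently with a TAZ siRNA present, as the change on top of the TAZ siRNA minus the change against control. For siYAP1 with siTAZ2, 0 of 35 members passed, where 0.109% of all genes did. At an unadjusted p under 0.05 there were 3 higher and 2 lower, against 980 higher and 1196 lower of all 25579 genes. For siYAP2 with siTAZ3, 1 of 35 passed, NDRG1, where 0.0821% of all genes did. Adding siYAP2 to siTAZ3 gave NDRG1 a difference of -0.19 (SE 0.144, limma adjusted p = 0.94), while siYAP2 alone gave -1.46. The difference between these was 1.27 (SE 0.186, limma adjusted p = 0.0110), and it was lost without either siTAZ3 replicate or without siTAZ3_siYAP2 replicate 1 (adjusted p up to 0.121 in limma). YAP1 mRNA itself gave a positive difference in both versions of this test, 1.02 for siYAP2 with siTAZ3 (limma adjusted p = 0.00526) and 0.66 for siYAP1 with siTAZ2 (limma adjusted p = 0.0448), since it fell less on top of a TAZ siRNA. The part of the smaller knockdown in the NDRG1 result was not tested.

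**Figure D4:**
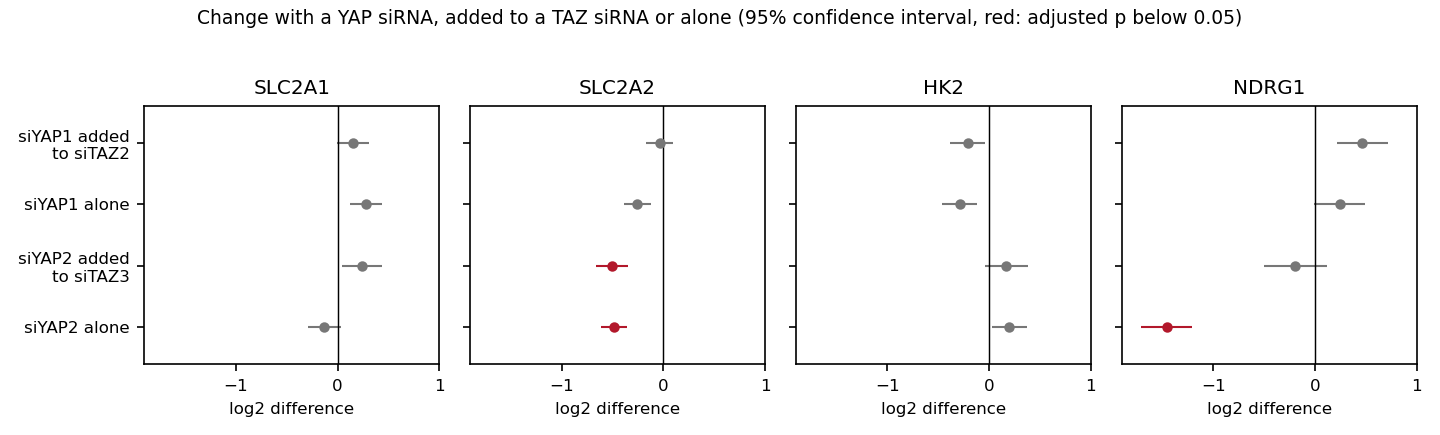
Log2 change with each YAP siRNA for SLC2A1, SLC2A2, HK2 and NDRG1, with 1 panel per gene. Rows give the change with the YAP siRNA alone versus control and its change on top of a TAZ siRNA. Points are estimates and lines are limma's confidence intervals. For siYAP2, NDRG1 lies at -1.46 alone and -0.19 on top of siTAZ3. SLC2A2 lies at -0.48 alone and -0.50 on top of siTAZ3.

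Other genes of glucose metabolism were counted from a further list, of which 45 of 49 were measured. Against control, 1 rose and 2 fell with siYAP1, 5 rose and 2 fell with siYAP2, 0 passed with siTAZ2 or siTAZ3, 2 rose and 1 fell with siTAZ2_siYAP1, and 2 rose with siTAZ3_siYAP2. The shares of all genes, given above, were 0.88% with siYAP1, 3.72% with siYAP2, 2.44% with siTAZ2_siYAP1 and 2.66% with siTAZ3_siYAP2. At an unadjusted p under 0.05 in limma there were 5 higher and 4 lower with siTAZ2 and 6 higher and 0 lower with siTAZ3. Of all 25579 genes, 1760 were higher and 1456 lower at that p with siTAZ2, and 1163 higher and 1116 lower with siTAZ3. Without siTAZ2 replicate 3 there were 5 higher and 1 lower calls with siTAZ2 (5.1% of all genes) and 3 higher with siTAZ3 (3.55%). TIGAR, a phosphatase that lowers fructose-2,6-bisphosphate, rose by 0.57 with siYAP1 (limma adjusted p = 0.0255) and by 0.75 with siYAP2 (limma adjusted p = 9.48e-04). TXNIP, which restrains glucose uptake, was at 7.83, 8.01 and 8.04 with siYAP1, against 8.57, 8.65 and 8.69 with control siRNA, and fell by 0.68 (SE 0.0891, limma adjusted p = 7.46e-04). With siYAP2 it was at 8.86, 8.59 and 8.56, overlapping the controls, and siYAP2 minus siYAP1 was 0.71 (limma adjusted p = 1.13e-04).

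SLC2A10, another transporter of the GLUT family, fell by 0.93 with siYAP1 (limma adjusted p = 0.0453) and was 1.35 higher with siYAP2 than with siYAP1 (limma adjusted p = 6.48e-04). TXNIP also fell with siTAZ2_siYAP1, by 0.48. With siYAP2 HKDC1, a hexokinase relative, GCKR, the glucokinase regulator, PGM1, which links glycogen to glycolysis, and ARRDC4, a relative of TXNIP, rose by 0.41 to 0.70. UGP2 and PYGL, which make and break glycogen, fell by 0.48 with siYAP2. GCKR rose by 0.83 and PPARGC1A, a co-activator of glucose production, by 0.63 with siTAZ2_siYAP1, and HKDC1 by 0.40 and PPARGC1A by 0.61 with siTAZ3_siYAP2. In siYAP2 minus siYAP1, 4 genes of this glucose metabolism list were higher and 3 lower, where 4.83% of all genes passed. PYGL averaged 8.61 with siYAP2, against 9.20 with siYAP1, and UGP2 averaged 8.67, against 9.26. ARRDC4 averaged 6.41, against 5.65, and PGM1 averaged 8.95, against 8.50. MPC1, a subunit of the mitochondrial pyruvate carrier, differed by -0.21 between siYAP2 and siYAP1. TXNIP was higher by 0.45 with siTAZ3 than with siTAZ2 (limma adjusted p = 0.0484), and by 0.52 without siTAZ2 replicate 3.

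Of a further list of genes induced by hypoxia, 44 of 45 were measured. Against control, 0 passed with siYAP1, and 1 was called higher without siTAZ2 replicate 3, where 2.47% of all genes passed. At an unadjusted p under 0.05 in limma 5 were higher and 1 lower with siYAP1, against 1241 and 1087 of all 25579 genes. With siYAP2, 2 rose and 2 fell, with siTAZ2, 1 rose and 2 fell, and with siTAZ3, 2 fell. With siTAZ2_siYAP1, 1 rose and 2 fell, and with siTAZ3_siYAP2, 1 rose and 3 fell. Beside these stand the same shares of all genes, with 2.37% for siTAZ2 and 1.16% for siTAZ3. ERO1A, an oxidase of the endoplasmic reticulum, fell with siTAZ2 by 0.55 (0.57 without replicate 3), siTAZ3 by 0.70, siTAZ2_siYAP1 by 0.35 and siTAZ3_siYAP2 by 0.74. It was at 9.96 and 9.96 with siTAZ3_siYAP2, against 10.77, 10.67 and 10.65 with control siRNA. BHLHE40, a repressor of transcription, fell by 0.81 with siYAP2, 0.66 with siTAZ2 (0.71 without replicate 3), 0.43 with siTAZ2_siYAP1 and 0.46 with siTAZ3_siYAP2, and with siYAP1 it lay at 9.12 to 9.32, above all controls.

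PLOD2, a collagen lysyl hydroxylase, was at 9.36, 9.57 and 9.62 with siYAP2, against 10.78, 10.66 and 10.74 with control siRNA. It fell by 1.21 with siYAP2 (limma adjusted p = 1.95e-07), by 0.70 with siTAZ3_siYAP2, and by 0.72 when siYAP2 was added to siTAZ3 (limma adjusted p = 0.00199). With siYAP1 it was at 11.05, 10.92 and 10.95, above all controls, and siYAP2 minus siYAP1 was -1.46 (limma adjusted p = 1.82e-08). TMEM45A, a membrane protein gene, rose by 0.76 with siTAZ2 (0.66 without replicate 3), 0.56 with siTAZ3_siYAP2 and 0.37 with siYAP2. TFRC, the transferrin receptor, rose by 0.23 with siYAP2, EPO, the hormone erythropoietin, by 0.45 with siTAZ2_siYAP1, and MET, a growth factor receptor, fell by 0.69 with siTAZ3. In siYAP2 minus siYAP1, 2 genes of this list were higher and 5 lower, where 4.83% of all genes passed, among them KLF10, a regulator of transcription, at -0.47 and CCNG2, an unusual cyclin, at -0.80.

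The genes that sense oxygen moved in several groups. EPAS1, which encodes the HIF-2 subunit regulated by oxygen, was at 8.34, 8.18 and 8.33 with siTAZ2_siYAP1, 9.09 and 8.94 with siTAZ3_siYAP2 and 7.72, 7.85 and 9.30 with siTAZ2, against 10.36, 10.34 and 10.40 with control siRNA. Its differences were -2.09 with siTAZ2_siYAP1, -1.35 with siTAZ3_siYAP2 and -2.08 with siTAZ2 (limma adjusted p = 3.78e-04, 0.0225 and 5.58e-04), with siTAZ2 replicate 3 nearer to the controls than the others. Without that array, which lay near the siTAZ3 arrays (9.66 and 9.46), the siTAZ2 difference was -2.58. HIF1A fell by 0.56 with siYAP2 (limma adjusted p = 5.14e-05). In that group the 11 hypoxia-induced members had 5 differences above 0 and 6 below. With siYAP2 EPAS1 was at 9.45, 9.48 and 9.50, below the controls. ARNT, another HIF subunit, was at 9.40, 9.50 and 9.34, against 9.02, 9.15 and 8.92 with control siRNA. Neither EPAS1 nor ARNT passed with siYAP2. EGLN1, the main HIF hydroxylase, fell by 0.59 with siYAP1, 0.40 with siTAZ2_siYAP1 and 0.33 with siTAZ3_siYAP2, and VHL, which marks HIF for degradation, fell by 0.38 with siYAP2 and 0.47 with siTAZ3_siYAP2. The part of these changes in the members' levels was not tested.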

How the data were processed

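Gene expression was measured in 19 samples of HepG2 cells, and per the submitters' processing notes the authors made the deposited log2 values with RMA, a method of background correction, quantile normalization and probe summary. All 19 columns hold the same sorted values, so a shift of the whole transcriptome would be removed. For RMA's version and the probe-set definition, none is given in the sources used here. Arrays have no read depth, and precision is limited by their number.

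Of 25582 probe sets, 24244 were named by the platform annotation and 24195 matched RefSeq (GRCh38.p14), which gave names and promoter windows only. Removing 3 duplicate symbols left 25579 genes. Groups and replicate numbers come from the sample titles. Under R 4.3.3, limma 3.58.1 (lmFit, then contrasts.fit and eBayes) was fitted to all 19 arrays with 1 mean per group, and SE and 95% intervals are its moderated values. The level of olfactory receptor genes served as a yardstick for background. Members that passed, up to 3 members per role with the largest change, YAP1, WWTR1 and passing genes of the further lists are named, and other members were described after their values were seen. The members and lists were chosen with earlier results of these data known. Same-numbered replicates do not pair: their deviations from group means correlated at -0.113 to 0.121 in the earlier deposit and -0.281 to 0.235 in the later one. Alternatives were median centring, an intensity trend, a filter on dim genes, only the groups compared, array weights, a replicate block and leaving out each array. The change with a YAP siRNA on top of a TAZ siRNA minus that without it was added after the data were seen.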

Additional observations from a re-analysis of the deposited data

Results flagged for a closer look

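The siRNAs against YAP1 differed in their effect against the same control for 5 genes, by the test of the difference itself (limma, siYAP2 minus siYAP1). NDRG1 differed by -1.70 (adjusted p = 1.81e-07), SLC2A1 by -0.41 (0.00369), HK2 by 0.49 (0.00149), SLC2A2 by -0.23 (0.0418) and KDM3A by -0.29 (0.0442). Each difference was in the same direction on all siYAP2 arrays against all siYAP1 arrays. The effect of siYAP2 on NDRG1 also differed with and without siTAZ3, by 1.27 (limma adjusted p = 0.0110), a comparison added after the data were seen.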

How the results depend on the processing

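No one of the 17 member calls changed direction under any of the 25 alternatives (19 fits without 1 array and 6 other settings). Median centring changed no value. The calls for NDRG1 with siYAP2 and in siYAP2 minus siYAP1, SLC2A2 with siYAP2, SLC2A3 with siTAZ2_siYAP1, and HK2 and SLC2A1 in siYAP2 minus siYAP1 held in all of them. With an intensity trend 3 of the 17 calls were lost, with the filter on dim genes 2, with only the groups compared 6 (SLC2A1, SLC2A3 and NDRG1 with siTAZ2 among them) and with array weights 0. A group of 2 that lost 1 array was assumed to vary like the others. The number of arrays limits all counts, HK1, PFKM and LDHB are limited by signal over background, and the cause of each change was not tested.

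Members passing moved as follows. With the intensity trend the count was 1 for siTAZ3_siYAP2 and 3 for siYAP2 minus siYAP1, and with the filter on dim genes 3 for siYAP2 minus siYAP1. With only the groups compared it was 0 for siTAZ2, 2 for siTAZ3, 5 for siTAZ2_siYAP1, 1 for siTAZ3_siYAP2 and 0 for siTAZ3_siYAP2 against siTAZ3. In each case of 0, limma's unadjusted p was under 0.05 for 6 members, against 2266 (siTAZ2) and 1787 (siTAZ3_siYAP2 against siTAZ3) of all genes. With array weights the count of members was 3 for siYAP1, 4 for siYAP2, 7 for siTAZ2, 4 for siTAZ3, 9 for siTAZ2_siYAP1, 4 for siTAZ3_siYAP2, 3 for siTAZ2_siYAP1 against siTAZ2, 9 for siYAP2 minus siYAP1 and 3 for siTAZ3 minus siTAZ2. Leaving out 1 array gave 0 to 4 for siYAP1, 2 to 5 for siTAZ2, 0 to 4 for siTAZ3, 1 to 6 for siTAZ2_siYAP1, 0 to 4 for siTAZ3_siYAP2, 0 to 1 for each pair against its TAZ siRNA, 3 to 8 for siYAP2 minus siYAP1, 0 to 2 for siTAZ3 minus siTAZ2 and 0 to 1 for siYAP2 with minus without siTAZ3.

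Genes passing with only the groups compared numbered 1866 for siYAP2, 2 for siTAZ2, 499 for siTAZ3, 1292 for siTAZ2_siYAP1, 5 for siTAZ2_siYAP1 against siTAZ2, 4 for siTAZ3_siYAP2 against siTAZ3, 0 for siTAZ3 minus siTAZ2 (1226 at an unadjusted p under 0.05 in limma), and 11 and 36 for siYAP1 and siYAP2 with minus without the TAZ siRNA. With array weights they numbered 556 for siYAP1, 2374 for siYAP2, 2382 for siTAZ2, 1053 for siTAZ3, 1943 for siTAZ2_siYAP1, 359 for siTAZ2_siYAP1 against siTAZ2, 228 for siTAZ3_siYAP2 against siTAZ3, 2140 for siYAP2 minus siYAP1, 1553 for siTAZ3 minus siTAZ2, and 126 and 72 for siYAP1 and siYAP2 with minus without the TAZ siRNA. Leaving out 1 array gave 126 to 632 for siYAP1, 612 to 1810 for siYAP2, 273 to 1305 for siTAZ2, 83 to 907 for siTAZ3, 314 to 1547 for siTAZ2_siYAP1, 313 to 1458 for siTAZ3_siYAP2, 26 to 99 and 46 to 387 for the pairs against their TAZ siRNA, 812 to 2171 for siYAP2 minus siYAP1, 20 to 1104 for siTAZ3 minus siTAZ2, and 17 to 50 and 9 to 99 for siYAP1 and siYAP2 with minus without the TAZ siRNA.

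With the replicate block 1 member passed with siTAZ2_siYAP1 (HK2 at -0.36, limma adjusted p = 0.0557, and PFKFB1 were lost) and NDRG1 passed with siTAZ3_siYAP2 (-0.60, limma adjusted p = 0.0115). The replicate block changed no other member call, and counts of all genes stayed within 1.5 times.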
